A study of Mus musculus with 1152 samples.

Results

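The Krüppel-like factors described here are 9 genes, Klf2, Klf3, Klf4, Klf6, Klf7, Klf9, Klf10, Klf11 and Klf13, chosen by name from the 23168 genes of a single-cell expression table that lists 16 genes with a Klf symbol. The table held about 660 lymphatic endothelial cells (LECs) of the nasopharyngeal lymphatic plexus, a meshwork of lymphatic vessels under the nasopharyngeal mucosa, taken from aged mice whose strain the labels give as c57bl/6 and the methods as C57BL/6J. All cells of this table belonged to 1 group, cells of younger animals were not analysed here, and no label tied a cell to an animal. According to the methods, mucosa of many animals was pooled and digested with enzymes, and cells positive for CD31 and PDPN were sorted singly into plates and sequenced by Smart-seq3, a full-length protocol. Levels that the cells had in the tissue and levels acquired during digestion and sorting cannot be told apart in this design. With 1 pool there was no replicate, so values are given as descriptions of these cells, with no test. Intervals on shares are exact 95% binomial intervals and cover counting error only, and correlations are Spearman's ρ over cells that share 1 pool.

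Krüppel-like factors are transcription factors with a zinc finger domain that binds GC-rich and CACCC DNA elements. In endothelium, KLF2 and KLF4 are known as factors that rise under steady laminar flow through the kinases MEKK3, MEK5 and ERK5 and the MEF2 factors, and that favour a quiescent, anti-inflammatory state. Several members are also known to be transcribed within minutes of a stimulus, as are the immediate-early genes Fos, Jun and Egr1, and genes of both kinds are known to be induced while tissue is taken apart with enzymes.

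The cells carried the markers of their label. All 8 lymphatic identity genes examined, among them Prox1, Flt4 and Pdpn, had reads in 87.7% to 100% of cells, while Epcam, which marks epithelium, had reads in 0 cells, for which a floor of 3 cells stands at 0.457% and the exact interval reaches 0.561%. The 6 haematopoietic markers in the table had reads in 0.457% (Cd3e) to 9.6% (Fcer1g) of cells each, Ptprc in 0.915%, and 18.6% of cells (15.7 to 21.8%) had a read of at least 1 of them. Of the 6 blood endothelial markers, Flt1 and Sox17 had reads in 2.44% and 1.98% of cells, Vwf in 10.4% and Cd34 in 35.5%, but Plvap in 65.9% and Emcn in 96.2%. Of the 5 fibroblast markers, Dcn had reads in 30% of cells and the others in 1.68% to 2.44%. Depth ran from 7046 to 10727631 reads per cell with a median of 148202. Cell numbers fell into 12 consecutive blocks of 96 numbers holding 18 to 83 cells each, which may or may not match plates. Blocks 8 and 9 were the deepest, with median reads of 2450280 and 2042788 against 52583 to 231193 in the other 10 blocks.

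Promoter sequence was examined because the levels of Klf2 and Klf4 varied together over cells. RefSeq (GRCm38.p6) gave a window of 300 bases, 250 before and 50 after the annotated start, for 8 of the 9 members, all except Klf10. The stretches from base -150 to base -51 of Klf2 (chr8:72318912-72319011, plus strand), Klf4 (chr4:55532526-55532625, minus strand) and Klf6 (chr13:5861339-5861438, plus strand), the most abundant members, are given 5′ to 3′ on the strand of the gene, with the MEF2 site in capitals.
Klf2: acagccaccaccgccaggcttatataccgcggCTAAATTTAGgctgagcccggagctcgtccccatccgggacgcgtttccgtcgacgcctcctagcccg
Klf4: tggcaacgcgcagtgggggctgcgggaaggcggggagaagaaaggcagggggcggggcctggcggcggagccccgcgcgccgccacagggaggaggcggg
Klf6: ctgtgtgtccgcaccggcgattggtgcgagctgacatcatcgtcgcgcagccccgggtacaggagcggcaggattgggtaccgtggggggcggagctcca
The Klf2 window held a MEF2 site at bases -118 to -109, a letter pattern present in 3.19% of 32851 windows of the same length. The 250 bases before the start were GC-rich in all 3 genes, at 71.2% in Klf2, 74% in Klf4 and 64.8% in Klf6. Of the other motifs searched on both strands, the CArG box bound by serum response factor, the cAMP response element TGACGTCA and TATAAA matched no member window. They matched 1.63%, 1.79% and 13.6% of all windows, so a lack of matches in 8 windows does not set these genes apart. The AP-1 site TGANTCA matched Klf9 alone, on chromosome 19, and 7.81% of all windows. A match describes letters in this window and does not show that a factor was bound there.

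Klf4 was the most abundant Krüppel-like factor in these LECs. Its level, in reads per 10000 reads of a cell, ran from 0 through a median of 9.62 to 143.1, with a mean of 14.5 ± 16 (SD over all cells), and 97.1% of cells had a read (95.5 to 98.2%). Klf2 ran from 0 through a median of 1.92 to 41.4 reads per 10000, with a mean of 3.95 ± 5.22 (SD over all cells) and reads in 82.3% of cells (79.2 to 85.2%). Klf6, known as a factor induced by injury and stress, ran from 0 through 2.03 to 50.2, with a mean of 3.83 ± 5.36 (SD over all cells) and reads in 88.6% of cells (85.9 to 90.9%). These 3 genes thus reached most cells but at very unequal levels, and the 10% of cells with the highest level held 35.7% of the summed Klf4 level, 41.2% of that of Klf2 and 43.9% of that of Klf6.

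Levels were compared between genes per kilobase of merged exon, since long transcripts collect more reads. Merged exon joins all annotated exons of a gene and can exceed the length of its transcripts in these cells. It is 1847 bases for Klf2 and 4391 for Klf6, whose means before division were 3.95 and 3.83 reads per 10000. Per kilobase, the means per 10000 reads were 4.75 for Klf4, 2.14 for Klf2 and 0.873 for Klf6. These placed them within the first 1.37%, 3.04% and 6.91% of 9545 genes with reads in at least 10% of cells. Klf10, a factor induced by TGF-β, followed at 0.335, then Klf13 at 0.281, Klf9, which responds to glucocorticoid, at 0.268 and Klf7 at 0.156. The lowest levels per kilobase were those of Klf11, a close relative of Klf10, at 0.0963, and of Klf3, a repressor that recruits CtBP, at 0.0502. The order from Klf4 through Klf2 and Klf6 to Klf10 was the same in 12 of 12 blocks. Further down, Klf9 was above Klf7 and Klf7 above Klf11 in 12 of 12 blocks, whereas Klf10 was above Klf13 in 9, Klf13 above Klf9 in 7 and Klf11 above Klf3 in 9. Other genes overlap Klf3, Klf7, Klf9 and Klf13 in the GENCODE M21 annotation (for Klf9 the miRNA gene Mir1192), and whether counting used the strand is not given in the sources used here, so the levels of these 4 genes may hold reads of a neighbour.

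Detection partly followed depth. When the 86.6% of cells with at least 20000 reads were thinned to 20000 reads each, the share with a read was 91% for Klf4, 78.9% for Klf13, 76.8% for Klf6 and 70.8% for Klf2, lay between 55.5% and 59.2% for Klf7, Klf9 and Klf10, and was 31.7% for Klf3 and 24.5% for Klf11. Klf13 was thus found in more cells than Klf2 although its mean level was lower, 2.12 against 3.95 reads per 10000. Of these thinned cells, 24.8% had reads of 6 members, 0.88% of all 9 and 0.704% of none.

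**Figure D1:**
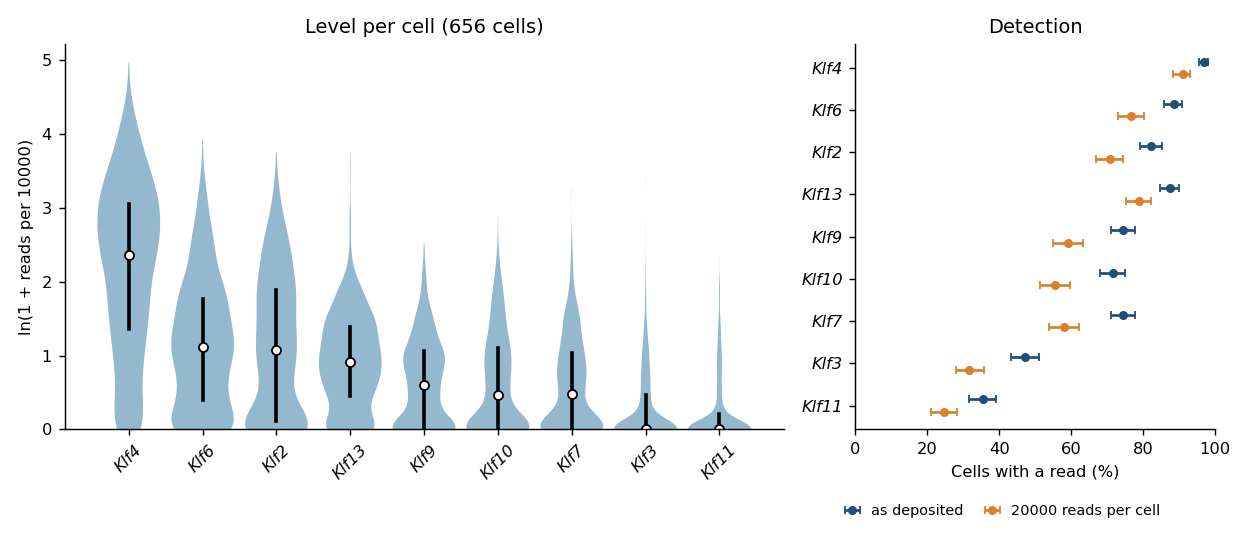
Left, the level of each Krüppel-like factor in all cells as the natural log of 1 plus reads per 10000, with violins for the distribution, white points for the median and black bars for the quartiles. Right, the percent of cells with a read, as deposited and after thinning cells to 20000 reads, with exact 95% intervals; Klf4 was found in 97.1% and 91% of cells and Klf11 in 35.4% and 24.5%.

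Members also differed in their spread between cells. The variance of the log level beyond that of genes of similar mean placed Klf4 at rank 23 and Klf2 at rank 91 of 5279 genes with reads in at least 30% of cells, and Klf6 within the first 3.13%. Fos, Atf3 and Jun stood at ranks 1, 3 and 12 and Egr1 at rank 19. Klf13 and Klf9 stood near the other end, at ranks 5030 and 4912, and Klf3, Klf7, Klf10 and Klf11 between 2055 and 3952. Klf13, found in 87.5% of cells, was therefore among the least variable genes for its level, and Klf4 among the most variable.

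The relation of the members to immediate-early genes was measured with a score, the mean standardized log level of the 29 genes of a 32-gene list that had reads in at least 10% of cells. No Krüppel-like factor was in the list. The ρ with this score was 0.724 for Klf4 and 0.576 for Klf2, ranks 1 and 11 among 9637 genes outside the score. It was 0.310 for Klf6, 0.278 for Klf11 and 0.204 for Klf10, and smaller for Klf9 (0.131), Klf13 (0.087), Klf7 (0.085) and Klf3 (0.021). A ρ above 0.3 was reached by 3 of 9 members, against 1.14% of the 9637 genes. Klf6 lay at that threshold, with values from 0.260 to 0.345 under 10 alternatives of which 7 were not above 0.3, whereas Klf4 ran from 0.580 to 0.743 and Klf2 from 0.456 to 0.599.

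The score itself was spread over 2 humps. Of all cells, 12.7% had a score between -0.8 and -0.6 and 15.9% between 0.2 and 0.4, with 7.32% in each interval of 0.2 from -0.4 to 0. Divided at 0, a boundary chosen after the distribution was seen, 55.5% of cells had a higher score (median 0.40) and 44.5% a lower one (median -0.59). Klf4 averaged 22.1 reads per 10000 in the first and 5 in the second, a ratio of 4.41, and Klf2 averaged 5.93 and 1.48, a ratio of 4. Klf11 came next, at 0.601 and 0.19, with reads in 47% (41.8 to 52.2%) and 20.9% (16.4 to 26%) of cells. The ratio was 2.22 for Klf6, 1.83 for Klf10 and between 0.938 and 1.29 for Klf3, Klf7, Klf9 and Klf13, so the members ranged from a large difference to nearly none. The higher-score cells were the shallower, with median reads of 125250 against 163282, and had a median of 4072 detected genes against 3746. The ρ with total reads was -0.027 for Klf4 and -0.026 for Klf2, and that with detected genes 0.111 and 0.090.

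Within the lower-score cells alone ρ with the score was 0.561 for Klf4, 0.240 for Klf2 and 0.230 for Klf6, and within the higher-score cells 0.286, 0.373 and 0.113. Even among lower-score cells 93.8% (90.4 to 96.3%) had a Klf4 read, so Klf4 was low in them rather than unseen. Klf2 had reads in 69.2% of these cells (63.5 to 74.4%) and in 92.9% (89.7 to 95.3%) of the others.

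**Figure D2:**
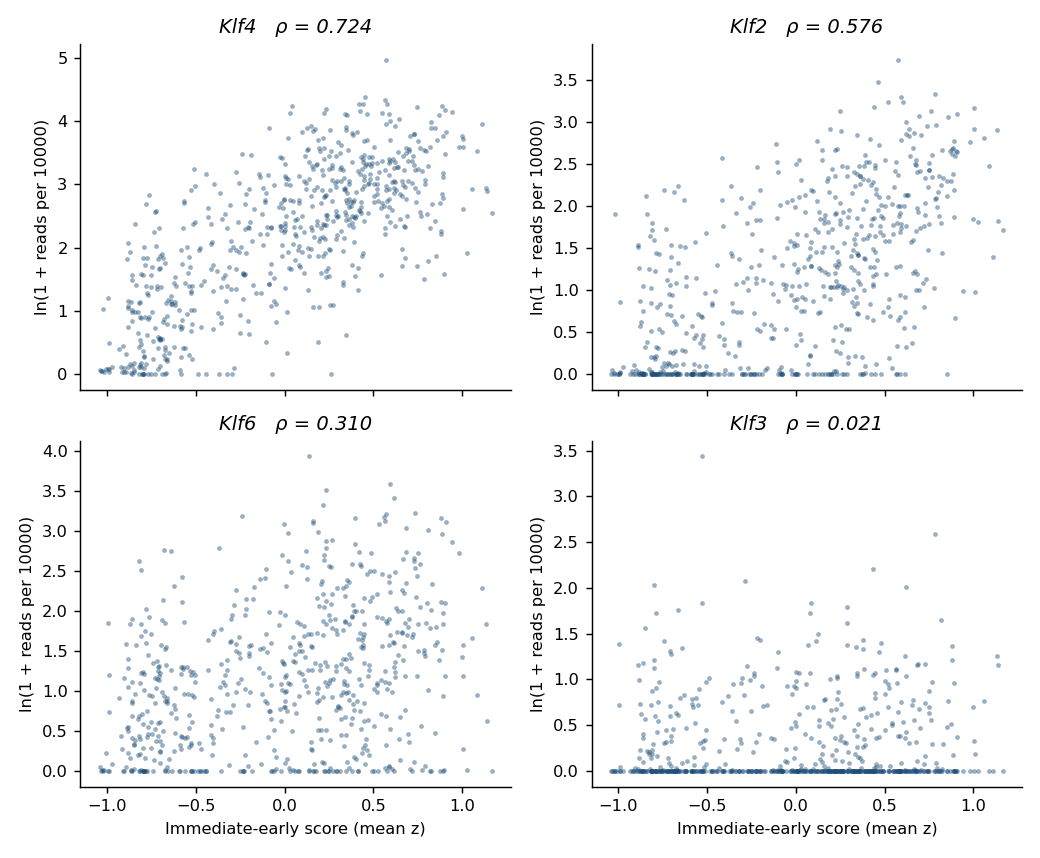
Level of Klf4, Klf2, Klf6 and Klf3 (natural log of 1 plus reads per 10000) against the immediate-early score (mean standardized level of 29 genes), each point 1 cell. Klf4 and Klf2 climbed with the score (ρ 0.724 and 0.576), Klf6 did so loosely (0.310), and Klf3 lay flat (0.021).

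Taken gene by gene, the closest partners of Klf4 were Fos at ρ 0.699, Jun at 0.691 and Junb at 0.679, all AP-1 subunits, followed by Zfp36, which directs decay of AU-rich mRNAs, at 0.645 and the stress factor Atf3 at 0.614. For Klf2 they were Jun at 0.569, Klf4 itself at 0.563, Zfp36 at 0.556, Fos at 0.540 and Fosb at 0.504, so Fos, Jun and Zfp36 were among the first 5 of both. Egr1, a zinc finger factor of the immediate-early class, gave 0.609 with Klf4 and 0.50 with Klf2. A ρ above 0.3 with Klf4 was found for 22 of the 29 list genes, against 0.704% of 9665 genes, and with Klf2 for 14 of 29, against 0.30%. With Klf6 it was found for 1 of 29, the MAP kinase phosphatase Dusp1 at 0.312, against 0.0310% of genes. The low end of the list was held by Ctgf and Dusp6. Ctgf, a secreted matricellular protein, had a ρ of -0.014 with Klf4 and -0.005 with Klf2, and Dusp6, another MAP kinase phosphatase, 0.131 and 0.084.

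Among the quieter members Klf11 was closest to Socs3, an inhibitor of cytokine signalling, at 0.289, then to Junb at 0.274 and Egr1 at 0.273. Klf10 was closest to Sertad1 at 0.234 and Bhlhe40, a circadian and stress-linked repressor, at 0.218. The highest ρ over 5278 genes was 0.201 for Klf9 (with Eif1), 0.180 for Klf3 (Lars2), 0.175 for Klf7 (Agfg1) and 0.171 for Klf13 (Rab11fip5), values too small to tie these 4 genes to any partner. After thinning, 21 of the 45 closest genes, 5 for each member, kept a place among the first 5 of their member.

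Heat shock genes followed the same 2 members at a lower level. Of 14 detected genes, 4 were above 0.3 with Klf4, against 0.704% of all genes, and 3 with Klf2, against 0.30%, led in both by the constitutive chaperone Hspa8, at 0.550 and 0.449. Adjusted for the immediate-early score, Hspa8 gave 0.118 with Klf4 and 0.099 with Klf2. The median over the 14 genes was 0.269 with Klf4, 0.228 with Klf2 and 0.136 with Klf6, against a median of 0.017, 0.013 and 0.016 over all genes. The mitochondrial chaperonin genes Hspd1 and Hspe1 stood apart, at 0.047 and -0.033 with Klf4.

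**Figure D3:**
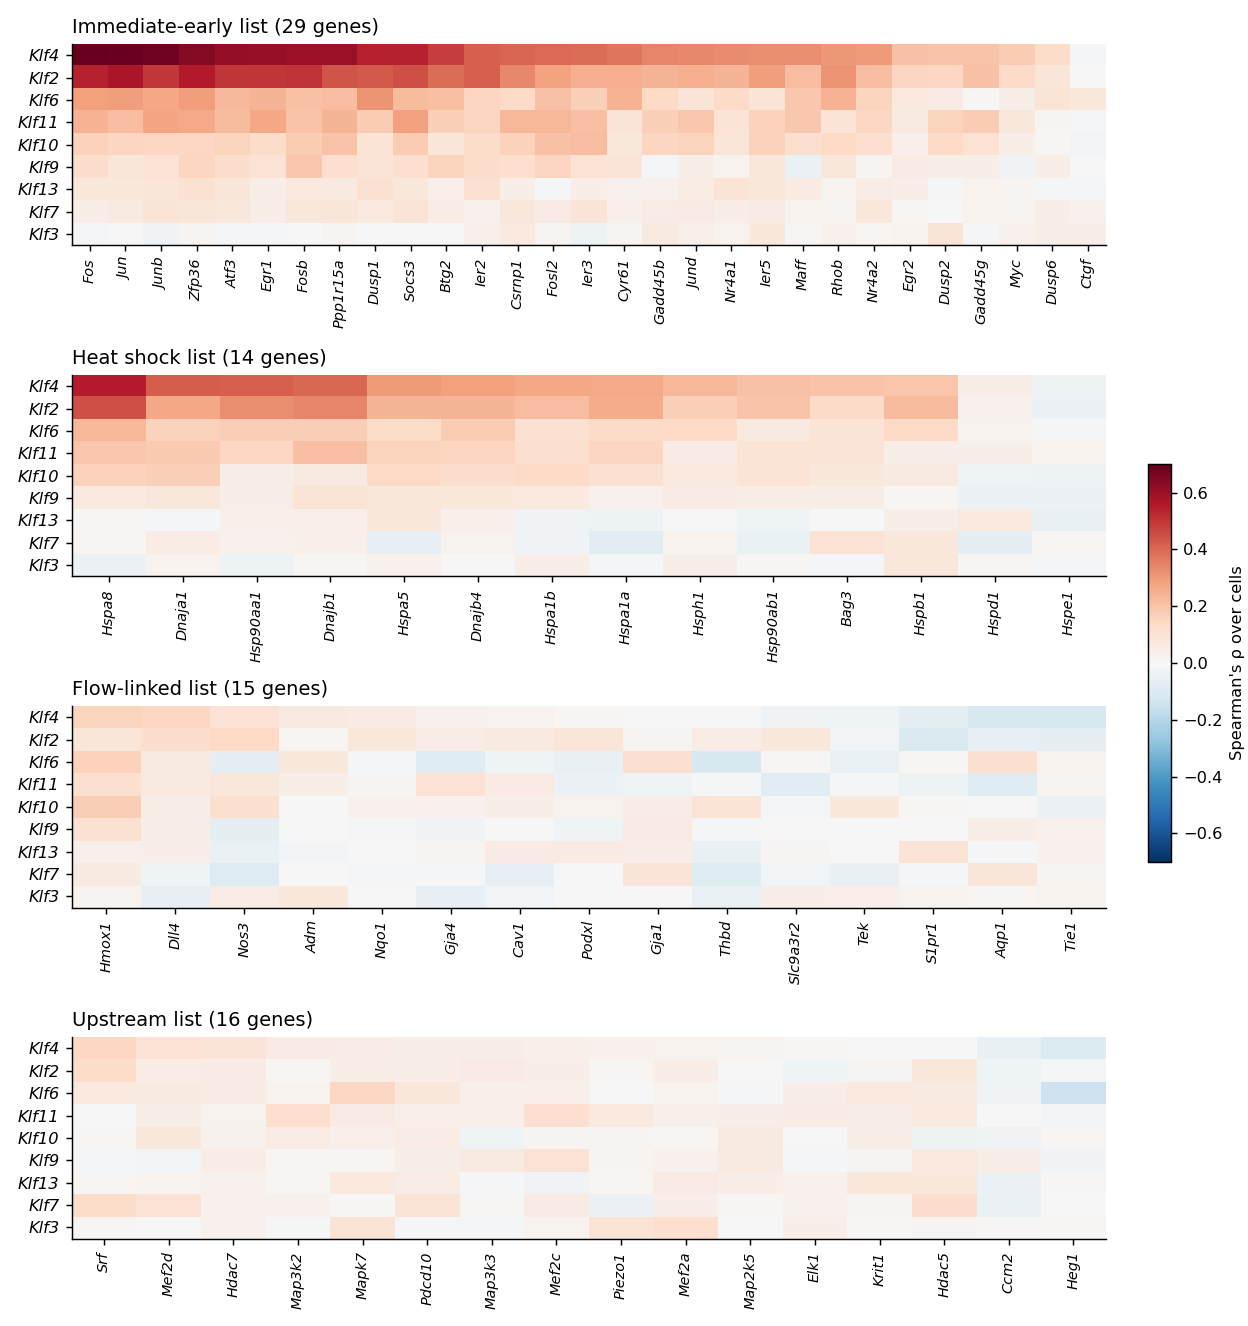
Spearman's ρ over all cells between each Krüppel-like factor (rows, ordered by ρ with the immediate-early score) and the detected genes of the immediate-early, heat shock, flow-linked and upstream lists (columns, ordered by ρ with Klf4). Red marks positive and blue negative ρ; the Klf4 and Klf2 rows are red over most of the immediate-early list and pale over the flow-linked and upstream lists.

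Genes known to rise with KLF2, KLF4 or laminar flow showed a ρ near 0 with both. Over 15 detected genes of that list the median ρ was 0.051 with Klf2 and 0.014 with Klf4, against 0.013 and 0.017 over all genes. None was above 0.3, a value reached by only 0.30% of all genes with Klf2 and 0.704% with Klf4. A ρ above 0.1 was found for 2 of 15 with Klf2, against 5.53% of all genes. With Klf4 it was found for 3 of 15, against 9.24%. With Klf2 the highest was Nos3, the endothelial nitric oxide synthase, at 0.137, and the lowest S1pr1, the sphingosine-1-phosphate receptor, at -0.101. With Klf4 the highest was Hmox1, haem oxygenase, at 0.155, and the lowest the receptor kinase Tie1 at -0.113. Thbd, which encodes thrombomodulin and is a classic target of both factors, gave 0.051 and 0.004. Adjusted for the immediate-early score, the medians were 0.018 and -0.006. The share of cells with a read ran from 50.3% (Adm) to 99.5% (Tie1) over the 15 genes, with a median of 87.7%. Whether detection affected these ρ values was not tested.

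The genes upstream of KLF2 and KLF4 showed no closer relation. All 16 genes of the list, among them the kinases Map3k3 (MEKK3), Map2k5 (MEK5) and Mapk7 (ERK5), the MEF2 genes, the cerebral cavernous malformation genes Krit1, Ccm2 and Pdcd10, and Piezo1, had reads in 12.5% to 80.8% of cells. Their ρ with Klf4 ran from -0.094 (Heg1) to 0.145 (Srf, serum response factor) and with Klf2 from -0.029 (Ccm2) to 0.127 (Srf). Of 5 detected genes known to be repressed by KLF2 or KLF4 none had a clearly negative value. The lowest with Klf2 was Angpt2, angiopoietin-2, at -0.045, and the adhesion molecule gene Icam1 gave 0.214 with Klf2 and 0.30 with Klf4, or -0.060 and -0.039 after adjustment for the score.

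Among the members themselves, 3 of 36 pairs had a ρ above 0.3, all among Klf2, Klf4 and Klf6, the members above 0.3 with the immediate-early score. Of all genes, 0.30% were above 0.3 with Klf2, 0.704% with Klf4 and 0.0310% with Klf6. Klf2 with Klf4 gave 0.563, Klf4 with Klf6 0.375 and Klf2 with Klf6 0.310. After adjustment for the immediate-early score these were 0.259, 0.230 and 0.169, and no pair was above 0.3. Less than the unadjusted value but above 0 remained in each pair, and the median over all 36 pairs went from 0.065 to 0.039. In cells thinned to 20000 reads, Klf2 and Klf4 were both found in 68.1% (64.1 to 72%), Klf4 alone in 22.9% (19.5 to 26.6%), Klf2 alone in 2.64% (1.49 to 4.32%) and neither in 6.34% (4.48 to 8.67%). Cells with Klf2 and no Klf4 read were thus few.

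The same relations were present in each of the 12 blocks of cell numbers. There ρ with the score ran from 0.597 to 0.802 for Klf4 and from 0.402 to 0.725 for Klf2, and Klf2 with Klf4 from 0.326 to 0.705. Klf6 ran from 0.120 to 0.431 and Klf3 from -0.209 to 0.219. Levels did vary between blocks. The mean of Klf2 was 3.94 to 5.33 reads per 10000 in blocks 1 to 5 and 5.09 in block 12, and 2.14 to 3.31 in blocks 6 to 11, a grouping made after the values were seen. Klf4 ran from 9.96 in block 11 to 18.7 in block 12, and Klf6 from 2.76 in block 12 to 5.76 in block 4.

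**Figure D4:**
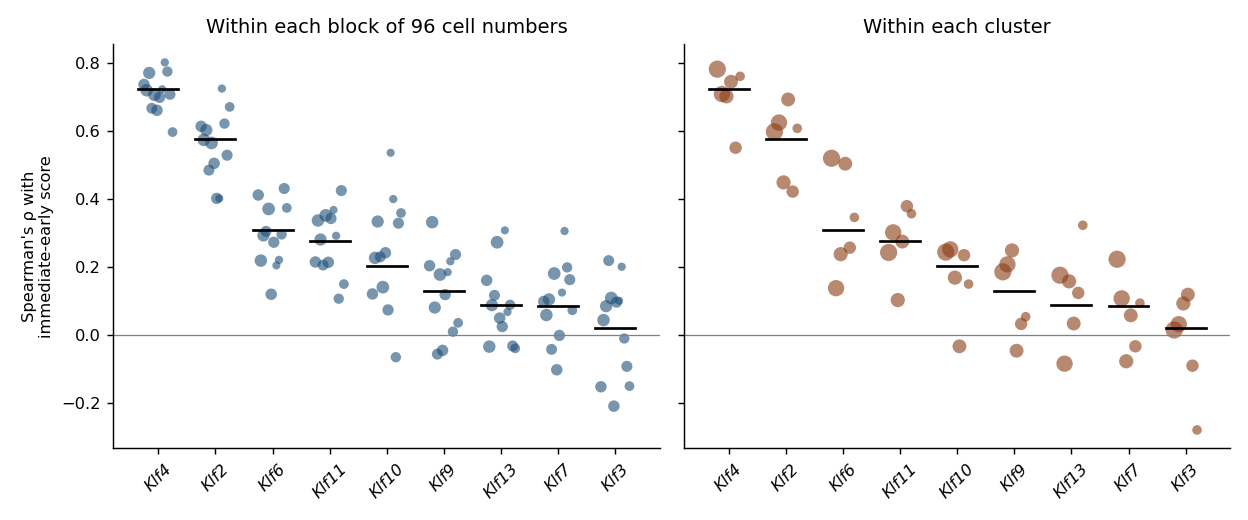
Spearman's ρ of each Krüppel-like factor with the immediate-early score within each of 12 blocks of cell numbers (left) and each of 6 clusters (right). Point size grows with the number of cells, and the black bar is the value over all cells. Klf4 lay between 0.551 and 0.802 throughout, and Klf3 lay on both sides of 0. The clusters were made without the members and the immediate-early genes.

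Cells were clustered on 1972 variable genes that left out the members and the immediate-early genes, which gave 6 clusters. Cluster 1 (26.5% of cells) was Ptx3+ capillary-like by its raised markers Ptx3, Stab2, Mrc1, Itih5 and Kcnj8. Cluster 5 (11.9%) was called upstream-valve-like by 3 of 5 listed markers, Cldn11, Neo1 and Gata2 (Gata2 also raised in cluster 3). Itga9 and Foxc2 of that list did not count as raised in cluster 5. The other 4 were not named, cluster 2 because it had 3 raised markers each of the precollecting (Foxp2, Apoe, Bmp4) and downstream-valve (Gja4, Clu, Adm) lists and the others because they had fewer than 3 of any list, and are called by their leading genes, Ahsg and Spp1 (cluster 2, 23.5%), Ptn and Anxa8 (cluster 3, 16.8%), Tppp3, Fbln7 and Fndc1 (cluster 4, 15.9%) and the interferon-stimulated genes Rsad2 and Ifit3 (cluster 6, 5.49%).

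Klf6 differed most between clusters. Its mean was 6.53 ± 7.66 reads per 10000 (SD over its cells) in the Tppp3-Fbln7-Fndc1 cluster against 3.33 in all other cells, and it was lowest, 2.62 ± 3.15 (SD over its cells), in the Ptn-Anxa8 cluster, a ratio of 2.44. It was higher in the Fndc1-led cluster than in the other cells of the same block in 6 of the 7 blocks with at least 5 cells on each side. A cluster with Fndc1 among its 10 leading genes had the highest Klf6 mean under each of the 7 clustering settings run, at 6.42 to 6.93 reads per 10000. The immediate-early score of the main Fndc1-led cluster was 0.02, near that of all cells.

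The other members were more even. The ratio of the highest to the lowest cluster mean was 1.37 for Klf10, 1.41 for Klf13, 1.48 for Klf2 and 1.57 for Klf4, and did not pass 1.94, the value of Klf3. A ratio of at least 2 was reached by 1 of 9 members, against 35.4% of 9666 genes, and the median was 1.62 for the members and 1.78 for all genes. The 2 sides are unlike, since the members were left out of the clustering genes and a dissociation score was regressed. The 9666 genes include those that defined the clusters, so the comparison favours even members. With members and immediate-early genes kept for clustering, the median of the members was 1.51. Klf4 and Klf2 were both highest in the Fndc1-led cluster, at 18.8 and 4.78 reads per 10000, and lowest in the Ptx3+ capillary-like cluster, at 12 and 3.2, whereas Klf3, Klf7 and Klf13 had their highest linear means in that capillary-like cluster, at 0.773, 1.56 and 2.56. Within blocks these were above the other cells in 5 of 11 for Klf3, 9 of 11 for Klf7 and 7 of 11 for Klf13, against 6 of 7 for Klf4 and 5 of 7 for Klf2 in the Fndc1-led cluster. The low end was close, with Klf4 at 12.1 in the Ptn-Anxa8 cluster and Klf2 at 3.45 in the upstream-valve-like one. The capillary-like cluster also held 18 of the 22 cells, low in most members, that stood apart with no variables regressed. Whether it stays lowest without them was not tested. The high linear mean of Klf13 did not extend to its detection, since its share at 20000 reads was 71.2% in the capillary-like cluster and 81.3% to 85.2% in clusters 2 to 5. Klf9 was highest in the Fndc1-led cluster, at 1.64, and lowest in the upstream-valve-like one, at 0.868, where Klf11 had its highest mean, 0.629. Clusters 1 and 6 had the lowest immediate-early scores, -0.13 and -0.09, and cluster 5 the highest, 0.11.

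Inside each of the 6 clusters ρ with the immediate-early score was 0.551 to 0.782 for Klf4 and 0.422 to 0.693 for Klf2. The clusters were made without these genes and with a score of immediate-early and heat shock genes regressed. Values near those over all cells were thus favoured by the way the clusters were made. The ρ of Klf6 with the score was uneven, at 0.520 in cluster 1 and 0.504 in cluster 4 but 0.138 in cluster 2. Klf2 with Klf4 ran from 0.462 to 0.615.

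**Figure D5:**
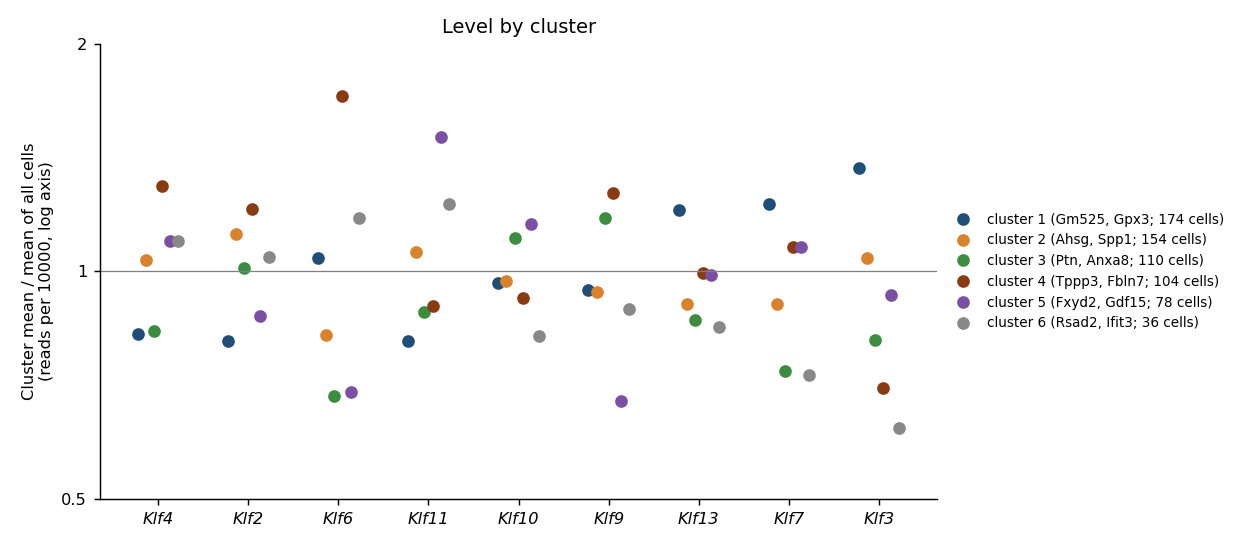
Mean level of each Krüppel-like factor in each of 6 clusters divided by its mean in all cells, on a log axis, 1 point per cluster. Klf6 in cluster 4 (6.53 against 3.83 reads per 10000 over all cells) lies farthest above the line at 1, and the Klf10 points lie closest together.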

How the data were processed

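Single LECs were profiled by Smart-seq3. According to the methods and the submitters' notes, the authors aligned reads to mm10 with STAR, counted them per gene with featureCounts (Subread), removed cells with under 2000 genes or over 10% mitochondrial reads and genes found in under 3 cells, and normalized in Seurat 4.1.0. The methods name a log2 scale, but the deposited values are the natural log of 1 plus reads per 10000, since their exponentials minus 1 sum to 10000 in each cell. Of the values above 0, 100% were whole reads within 0.01 reads, which gave the depth. Reads and not molecules were counted. Of 1152 labelled cells, 656 were analysed here.

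Each cell is a labelled sample of 1 group, and no animal is named, so no p-value, standard error or count test was used. The 9 members and all gene lists (immediate-early, heat shock, flow-linked, upstream, repressed, other family, cell type markers) were chosen with earlier results of these data known. Named genes were the members, the 5 genes of highest ρ with each member among genes in at least 30% of cells, Fos, Jun, Atf3, Egr1, and the highest and lowest genes of each list; Dusp6, Hspd1 and Thbd were added after values were seen. Backgrounds used genes in at least 10% of cells, and called means ρ above 0.3 or a cluster ratio of at least 2, with 0.1 reads per 10000 added to the means. Of the gene symbols, 22224 of 23168 had 1 GENCODE M21 gene. Clustering in Seurat 5.3.0 (R 4.3.3) on the recovered reads followed the study's steps (2000 variable genes, regression of total reads, mitochondrial share, and dissociation and ribosomal scores, 15 principal components, Louvain) at the lowest resolution with at least 5 clusters, 0.8. A cluster was named from at least 3 raised markers, at 1.5 times the other cells, where these outnumbered those of any other list. Cells were thinned with a fixed seed, and 88 cells under 20000 reads were left out. Intervals are Clopper-Pearson (scipy 1.17.1). Wells received single cells, and doublets were not called. The scripts were tested on simulated data. Alternatives changed the depth, blocks, clusters, cells, score and correlation.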

Additional observations from a re-analysis of the deposited data

How the results depend on the processing

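No paired analysis was possible because all cells belong to 1 group. The median share of cells with a read over the 9 members, 74.5%, was 59.2% at 20000 reads, 80.7% in cells with at least 3000 genes and 28.8% when only values above 1 counted, and the share of each member moved likewise at 20000 reads. The median ρ of the members with the immediate-early score, 0.204, moved by less than 1.5 times under all 10 alternatives. Among these, the removal of cluster means used clusters made without these genes, so little change was favoured there. With the score adjusted for, Klf2 with Klf4 went from 0.563 to 0.259 and the median of all pairs from 0.065 to 0.039. The median ρ with the flow-linked list went from 0.051 to 0.023 (depth adjusted) and 0.018 (score adjusted) for Klf2, and from 0.014 to -0.031, -0.006 and -0.002 (depth, score, thinned) for Klf4, all near 0. Klf6 was not above 0.3 with the score under 7 of 10 alternatives, with a lowest value of 0.260 when depth was adjusted for. Klf11, at 0.278, was above 0.3 under 1, at 0.378 in cells with at least the median reads. That setting and the removal of 22 cells, the cluster of lowest mean score with no variables regressed, were chosen after seeing the data. With no variables regressed the median cluster ratio went from 1.62 to 4.18 and that of Klf6 to 9.53, because 22 cells formed a cluster of their own with low values of most members. Of the 45 closest genes 21 kept their place after thinning. The cause of these changes was not tested. Klf3 and Klf11 had no read in 52.9% and 64.6% of cells, so a small ρ for them may not show how their levels vary. Their ρ with total reads was 0.124 and 0.127. On the mean level, a linear in place of a log mean moved 2 of 9 members by over 1.5 times.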

Other observations

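Other genes of the Krüppel-like and SP families were mostly found in fewer cells than the 9 members, with the exception of Sp1. Of 12 listed family genes in the table, Sp1, a broadly expressed GC-box factor, had reads in 51.2% of cells (47.3 to 55.1%), above Klf3 (47.1%) and Klf11 (35.4%), Sp3 in 32.9%, Sp2 in 27.9%, Klf16 in 22.6%, Klf12 in 20% and Sp4 in 18.6%. Klf5, known from epithelium and smooth muscle, had reads in 1.83% (0.949 to 3.17%), Klf15 in 5.18%, Klf8 in 2.44% and Klf1, the erythroid factor, in 0.762%. Klf14 and Sp9 had reads in 0 cells, with a floor of 0.457% and an exact upper limit of 0.561%. The highest ρ of these genes with Klf4 and Klf2 was that of Klf16, at 0.191 and 0.182.

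When clusters were made with no variables regressed, 22 cells stood apart, 18 of them from the Ptx3+ capillary-like cluster. Their mean immediate-early score was -0.82. Klf4 averaged 0.737 reads per 10000 in them against 9.77 to 20.7 in the other 5 clusters of that setting, Klf2 0.405 against 3.09 to 6.16 and Klf6 0.637 against 2.41 to 6.93. Klf3 was at 0.0213 against 0.402 to 0.813, while Klf13, at 2.11, lay inside the range of the others (1.77 to 2.47). These cells were not shallow, with median reads of 198524, but had a median of 2622.5 detected genes against 3674 to 4563 in the others. Without them ρ with the score was 0.704 for Klf4, 0.565 for Klf2 and 0.280 for Klf6. What sets these cells apart was not tested.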
